A study of Mus musculus with 2 samples.

Results

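The genes described here are 33 mouse genes that import amino acids, make serine and pass on its carbon, charge transfer RNAs, or belong to the ATF4 stress response. They were chosen by name, and all 33 were found among the 53715 genes of the tables. They comprise 7 transporters, 8 serine and one-carbon enzymes, Atf4 with 5 of its targets, and 12 cytosolic aminoacyl-tRNA synthetases. They were read in single-cell RNA libraries of cells sorted from CT26_b2m-/- tumours, a mouse colon carcinoma line in which B2m, the light chain of MHC class I, is disrupted in both groups. One group is labelled IL-15SA and the other IL-15SA+IL-21Fc. Strain, age, dose and time are not stated in the sources used here, no untreated group is among the samples, and the sorting gate was CD45.2+, CD3-, NKp46+. The sorted cells of each treatment were combined into 1 library, so no test between the groups is possible and no p-value is given.

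Both within and between the libraries, 2 classes of cells were compared. Ncr1-positive cells hold at least 1 UMI (a counted RNA molecule) of Ncr1, the gene of the sorted NKp46 receptor, and lie outside the tumour-like cluster. They numbered 7022 in the IL-15SA library and 9792 in the combination library, with 26568207 and 27869936 UMIs in all and medians of 3208 and 2438 UMIs per cell. Tumour-like cells are cluster 5 of the cells, led by Lrp1, Cald1, Col1a2 and Fn1, with 546 and 1316 cells and 1654797 and 4110140 UMIs. An Ncr1 UMI was also held by 68.1% and 54.0% of the tumour-like cells, and the 10 NK cell markers stood there at medians of 32.1% and 21.5% of their Ncr1-positive level. In the other direction, 6 of 13 tumour or stroma markers stood in Ncr1-positive cells at medians of 2.76% and 4.50% of their tumour-like level. These 6 (Col1a1, Col1a2, Sparc, Rhox5, Pcolce and Fn1) had the highest tumour-like levels of the list in both libraries. The part these shared RNAs play in the member values was not tested. T cell markers summed to 160 and 181 CPM (UMIs scaled to 1000000 per class and library) in Ncr1-positive cells, and B cell, macrophage and neutrophil markers to at most 1.22.

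Amino acids enter cells through carriers in the membrane. Slc7a5 and Slc3a2 together form the LAT1 system, which brings in leucine and other large neutral amino acids, and Slc1a5 brings in glutamine; activated NK cells and other lymphocytes are known to draw on them for growth and mTORC1 signalling. Serine is made from glycolysis by Phgdh, Psat1 and Psph, and its carbon is passed to folate by Shmt1, Shmt2 and the Mthfd enzymes for nucleotide synthesis. When amino acids or protein folding fail, kinases phosphorylate eIF2 alpha, translation of the transcription factor ATF4 increases, and genes of transport, serine synthesis, tRNA charging and stress are induced.

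ATF4 binds composite elements whose core is often written TGATGNAA, where N is any base. This motif was searched on both strands in RefSeq promoters of the build GRCm38.p6, each reaching from 250 bases before to 50 bases after a transcript start. Of the 25 members with a promoter in the table, 9 held a match (36.0%), against 4.51% of 27025 genes with promoters of this length. The matches were in 5 of 7 synthetases (Aars, Gars, Iars, Yars, Tars), in 3 of 6 genes of the ATF4 group (Asns, Chac1, Trib3), in 1 of 4 transporters (Slc7a11) and in 0 of 8 serine and one-carbon enzymes. No promoter was listed for Slc7a5, Slc1a5, Slc38a1, Wars, Nars, Cars, Mars or Lars. A match describes letters in the window and is no evidence of binding. The 6 windows that hold a match upstream of the start are shown. Whether matches go with the levels of the genes was not tested. Each window begins up to 40 bases before the first match, on the strand of the gene, with matches in capitals. It ends up to 40 bases after the last match, and at the latest at the base before the start. The matches shown for Chac1 and Aars begin 193 and 112 bases before the start, so these 2 windows end short of it. TTNCATCA is the motif read on the opposite strand.
Slc7a11, chr3:50443614-50443719, minus strand: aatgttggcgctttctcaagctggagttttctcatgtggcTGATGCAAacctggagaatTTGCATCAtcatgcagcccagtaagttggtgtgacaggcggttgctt
Asns, chr6:7693210-7693272, minus strand: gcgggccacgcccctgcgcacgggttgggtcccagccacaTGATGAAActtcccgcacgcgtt
Chac1, chr2:119351009-119351096, plus strand: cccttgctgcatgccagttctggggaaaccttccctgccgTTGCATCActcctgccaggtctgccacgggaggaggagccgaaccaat
Aars, chr8:111033690-111033777, plus strand: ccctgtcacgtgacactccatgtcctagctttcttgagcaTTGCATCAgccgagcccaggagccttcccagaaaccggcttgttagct
Gars, chr6:55037931-55038000, plus strand: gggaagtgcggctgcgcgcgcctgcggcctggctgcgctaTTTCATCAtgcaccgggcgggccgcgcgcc
Tars, chr15:11399659-11399713, minus strand: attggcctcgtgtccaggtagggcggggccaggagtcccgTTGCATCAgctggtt

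In Ncr1-positive cells most members were at a lower level in the combination library, and by modest factors. Levels are in CPM, and intervals are 95% intervals that cover counting error only, not variation between mice. A gene counts as measured if it reaches 5 CPM in either library. Of 30 measured members, 27 had a log2 ratio of the combination over IL-15SA below 0, where 50.3% of 9188 measured genes did. The median log2 ratio was -0.28 over the members and -0.00 over all genes, with 1 CPM added to both levels. A fold of 1.5 or more was passed by 1 member downward, Slc7a5, beside 0.522% of all genes, and by 0 members upward, beside 2.26% of all genes. Mthfd2, Cars and Ddit3 lay near this limit: without cluster 6 described below, 3 members were lower by it, and without cluster 2, 1 was higher. By role, 8 of 8 serine and one-carbon enzymes, 12 of 12 synthetases, 4 of 6 measured transporters and 3 of 4 measured genes of the ATF4 group were lower, and differences between the roles were not tested. Chac1 and Trib3 of the ATF4 group, which were under 5 CPM, had log2 ratios of -0.18 and -0.30. Summed values of pooled cells cannot tell less RNA per cell from fewer cells with the RNA.

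**Figure D1:**
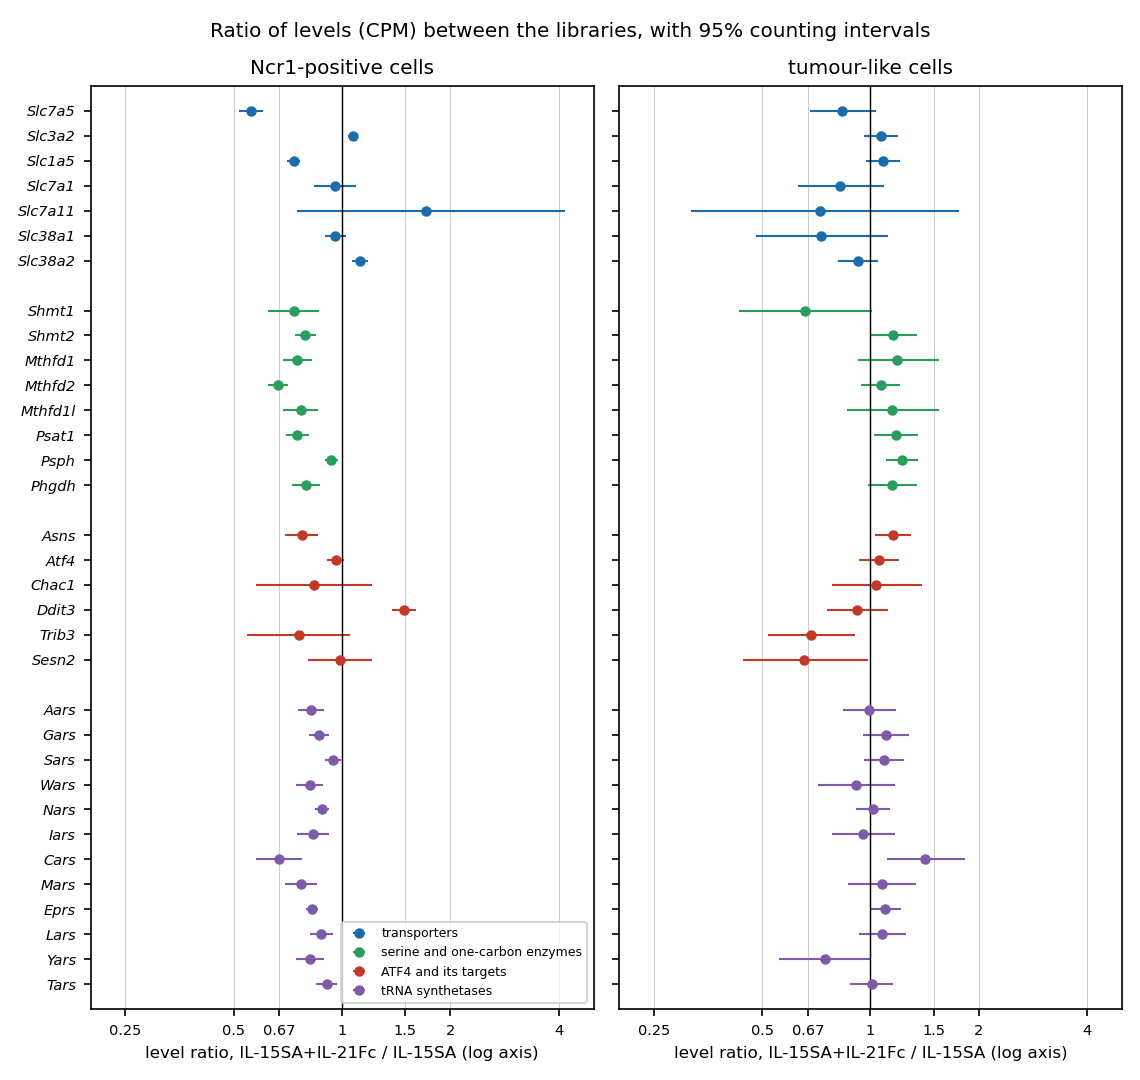
Ratio of the level with the combination to that with IL-15SA for the 33 genes, on a log axis, in Ncr1-positive cells (left) and tumour-like cells (right), with bars as 95% counting intervals and colours as the 4 roles. On the left the 20 enzymes and synthetases lie below 1, with Slc7a5 lowest and Ddit3 above 1; on the right most bars cross 1.

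Among transporters, the catalytic chain of LAT1 was lower with the combination, and the anchoring chain was slightly higher in the summed cells. Slc7a5, on chromosome 8 (121881150 to 121907694, minus strand, mm10), was at 66.7 CPM (63.6 to 69.9) with IL-15SA and 37.2 CPM (35.0 to 39.6) with the combination. It was thus 1.79-fold lower with the combination (1.66 to 1.94). Its partner Slc3a2, which carries the heterodimer to the membrane and also pairs with other light chains, was at 277 CPM (271 to 284) and 297 CPM (290.3 to 303), 1.07 times as high. The intervals of the 2 levels of Slc7a5 are far apart, and those of Slc3a2 are close. Over the clusters described below, the ratio of Slc3a2 ran from 0.931 in cluster 7 to 1.12 in cluster 3. Its interval lay above 1 in cluster 3 only and held 1 in the others. The glutamine carrier Slc1a5 was at 184 and 135 CPM, 1.36-fold lower (1.31 to 1.42). The cationic amino acid carrier Slc7a1, at 16.4 and 15.7 CPM, and the glutamine carrier Slc38a1, at 65.1 and 62.3 CPM, had ratios whose intervals hold 1. Slc38a2, a neutral amino acid carrier induced by starvation, was at 106 and 119 CPM, 1.12-fold higher (1.07 to 1.18). Its log2 ratio of 0.17 was 0.01 when averaged over 10 bins of cells by UMIs per cell. Slc7a11, the cystine carrier, was close to absent from Ncr1-positive cells, with 10 and 18 UMIs.

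Slc7a5 was also followed per cell. After each cell was thinned to 1000 UMIs, 5.40% of Ncr1-positive cells (exact binomial interval 4.88 to 5.95) held a Slc7a5 UMI with IL-15SA and 3.16% (2.82 to 3.52) with the combination; 0 cells were too shallow to enter. Without thinning the shares were 17.3% and 8.88%. Thinned tumour-like cells held one in 6.59% and 6.16%. No class here is known to lack the gene, so no background share is available.

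The serine and one-carbon enzymes were lower together in Ncr1-positive cells, with a median log2 ratio of -0.38. Mthfd2, the mitochondrial methylene-tetrahydrofolate dehydrogenase (chromosome 6, 83305691 to 83325908, minus strand), was at 90.1 CPM (86.5 to 93.8) with IL-15SA and 59.9 CPM (57.0 to 62.8) with the combination, with a ratio of 0.665 (0.624 to 0.708). With 1 CPM added it fell just short of the 1.5-fold limit. Its neighbours in the folate cycle were lower by smaller factors. Shmt2, which splits serine in mitochondria, was at 70.2 and 55.4 CPM (1.27-fold lower), and its cytosolic counterpart Shmt1 at 13.1 and 9.65 CPM (1.36-fold). Mthfd1, the cytosolic trifunctional enzyme, was at 37.7 and 28.3 CPM (1.33-fold), and Mthfd1l, which releases formate, at 26.0 and 19.9 CPM (1.30-fold). None of these ratios has an interval that reaches 1.

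The 3 steps of serine synthesis had the same direction. Phgdh, the first step, was at 40.5 and 32.1 CPM, 1.26-fold lower (1.15 to 1.38). Psat1, the second, was at 64.2 and 48.2 CPM, 1.33-fold lower (1.24 to 1.43). Psph, the last, was at 177 and 165 CPM, only 1.07-fold lower (1.03 to 1.12). In the annotation, 10.4% of the exon length of Psph overlaps Cct6a on the other strand.

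Levels of these enzymes varied with the depth of the cells, which differed between the libraries. Summed over the 8 enzymes, the level with IL-15SA lay between 403 and 520 CPM in the lower 9 of 10 bins of cells by UMIs per cell and was 637 CPM in the highest. With the combination it ran from 333 CPM in the second bin to 552 CPM in the highest. With IL-15SA the level did not climb steadily with depth, being 426 CPM in the shallowest bin and 403 CPM in the sixth, and it stood above the other bins in the 2 deepest. The median log2 ratio of the enzymes was below 0 in each of the 10 bins, but its size varied, from -0.48 in bin 3 to -0.03 in bin 8. The mean over bins gave -0.24 in place of -0.38. Within clusters, with 4 depth bins each, it was -0.21. Shmt1 moved most, from -0.41 to -0.09 as a mean over 10 bins.

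**Figure D2:**
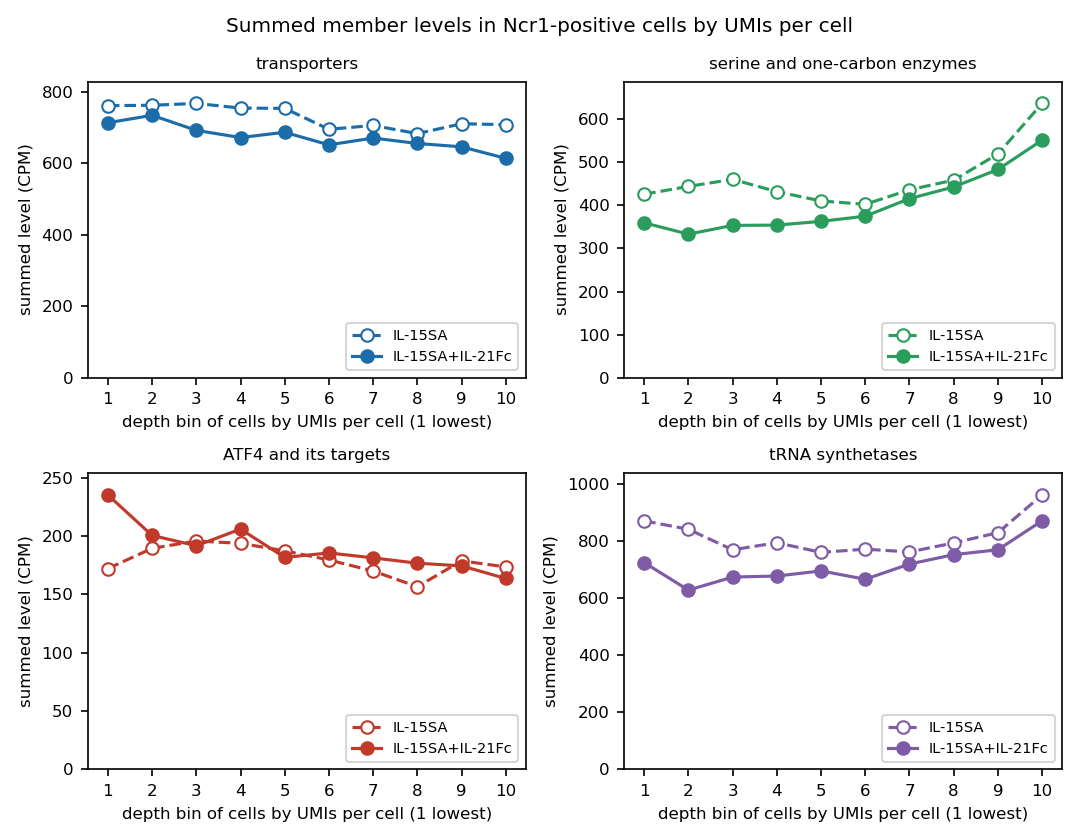
Summed level in CPM of the genes of each role in Ncr1-positive cells, by bin of cells ordered by UMIs per cell, 10 bins in all, with open points for IL-15SA and filled points for the combination. The enzymes reach 637 and 552 CPM in the highest bin, and the filled points of enzymes, synthetases and transporters lie under the open ones in every bin, unlike those of the ATF4 group.

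The tRNA synthetases, which load each amino acid onto its tRNA, were lower in 12 of 12 cases, with a median log2 ratio of -0.27. Cars, which charges cysteine, was at 17.0 and 11.4 CPM, with a ratio of 0.669 (0.577 to 0.774). Mars (methionine) followed at 32.6 and 25.1 CPM, 1.30-fold lower. Eprs, which charges both glutamate and proline, was at 200.1 and 165 CPM, 1.21-fold lower (1.16 to 1.26) and close to the group's middle. Wars (tryptophan, 42.2 and 34.3 CPM), Yars (tyrosine, 40.8 and 33.2 CPM), Aars (alanine, 44.6 and 36.5 CPM) and Iars (isoleucine, 31.0 and 25.8 CPM) had ratios from 0.812 to 0.832. Gars (glycine, 74.1 and 63.9 CPM), Lars (leucine, 56.6 and 49.6 CPM), Nars (asparagine, 134 and 118 CPM) and Tars (threonine, 68.2 and 61.8 CPM) were between 1.10-fold and 1.16-fold lower. Sars (serine) was at 111 and 105 CPM, 1.06-fold lower (1.01 to 1.11). The factors are thus small, and what the group shows is a common direction. Their size varied with depth: by bin of UMIs per cell, the median log2 ratio ran from -0.45 in bin 2 to -0.03 in bin 7. It was below 0 in each bin. The summed level of the synthetases was 962 and 871 CPM in the highest bin. In the annotation, 14.3% of the exon length of Aars is shared with other genes on its own strand, mainly Exosc6.

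Among Atf4 and its targets in Ncr1-positive cells, Ddit3 was higher with the combination and the others were lower or had intervals that hold 1. Atf4 itself, which is mostly regulated in translation and not in RNA level, was at 98.3 CPM (94.6 to 102) and 94.4 CPM (90.8 to 98.1), with a ratio of 0.960 (0.909 to 1.01). Ddit3, the transcription factor CHOP of prolonged stress, went the other way from most members. It lies on chromosome 10 (127290774 to 127296288, plus strand) and was at 41.1 CPM (38.7 to 43.6) with IL-15SA and 61.1 CPM (58.3 to 64.1) with the combination, 1.49-fold higher (1.38 to 1.61). Asns, asparagine synthetase and a classical ATF4 target, was at 29.2 and 22.6 CPM, 1.29-fold lower (1.16 to 1.44). Sesn2, a leucine sensor and stress gene, was at 7.08 and 6.997 CPM, with an interval that holds 1. The glutathione-degrading enzyme Chac1 had 65 and 57 UMIs and the pseudokinase Trib3 88 and 70 UMIs, all under 5 CPM. Thus, in the summed Ncr1-positive cells, Atf4, Ddit3 and Asns, which the same response is known to join, stood near 1, above 1 and below 1.

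Thinned to 1000 UMIs, 3.97% of Ncr1-positive cells (3.53 to 4.46) held a Ddit3 UMI with IL-15SA and 5.79% (5.34 to 6.27) with the combination, and 11.01% and 12.7% without thinning. The shares in thinned tumour-like cells were 7.88% and 7.07%. Ddit3 is listed under a second ID too, and 6.13% of its exon length is shared on its strand and 4.73% on the other, where Mars overlaps it. Mars was lower and Ddit3 higher with the combination.

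Genes of the same pathways outside the 33 were read from lists written with them. Of 15 measured other one-carbon and nucleotide genes, 14 were below 0, with a median log2 ratio of -0.20. Gcsh of the glycine cleavage system was at 81.9 and 56.0 CPM, Gart of purine synthesis at 36.9 and 25.8 CPM, and Atic, which closes the purine ring, at 53.8 and 39.4 CPM. Of 11 other cytosolic synthetases and their scaffold proteins, 11 were below 0 with a median of -0.13; among them were Farsb (37.4 and 26.7 CPM), Aimp2 (44.1 and 33.8 CPM) and Dars (71.9 and 58.3 CPM). Mitochondrial synthetases were nearer to all genes, with 8 of 13 below 0 and a median of -0.04; Rars2 was at 25.9 and 21.9 CPM, Iars2 at 22.5 and 19.9 CPM, and Yars2 at 23.4 and 21.5 CPM. Whether the mitochondrial synthetases differ from the cytosolic ones in this was not tested.

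Other transporters and amino acid sensors showed 7 of 16 below 0, with a median of 0.03. Sesn1, a sestrin like Sesn2, was at 16.2 and 26.0 CPM, 1.60-fold higher with the combination (1.42 to 1.81). Slc16a10, an aromatic amino acid carrier, was at 82.0 and 72.8 CPM, and Slc38a10 at 41.3 and 36.1 CPM. Among other stress genes, 13 of 22 were below 0, with a median of -0.04. The stress regulator Nupr1 was at 12.8 and 23.0 CPM, 1.79-fold higher (1.57 to 2.05), but its Ncr1-positive level was only 3.47% and 5.62% of its tumour-like level, close to the shares of the tumour markers above. Cebpb was at 73.0 and 114 CPM, which are 21.1% and 26.3% of its tumour-like level, and Herpud1 of the endoplasmic reticulum stress response at 42.1 and 56.7 CPM. Ddit3 stood at 45.3% and 73.5% of its tumour-like level.

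The members were next read by state. Clustering was done without the members and the pathway lists, and 6 clusters had at least 100 Ncr1-positive cells in each library. They are given by number and leading genes: cluster 1 (Cd3g, Klra7, Klra1; 2471 and 3075 cells), cluster 2 (Nusap1, Esco2, Rrm2, Mki67, all of cell division; 1743 and 1886), cluster 3 (Cma1, Ccl5, Ccl3, S1pr5; 1084 and 2278), cluster 4 (Cd74, Cxcr6, Il7r; 932 and 1739), cluster 6 (Gzmg, Gzmd, Gzmf; 556 and 235) and cluster 7 (Ifit2, Slfn5, Mx1; 201 and 541).

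The dividing cells of cluster 2 carried more RNA of serine and one-carbon enzymes. Mthfd2 was at 140 CPM there and 64.2 CPM in the other Ncr1-positive cells with IL-15SA, a fold of 2.18 (2.01 to 2.37). With the combination it was at 95.3 and 45.3 CPM, a fold of 2.10 (1.91 to 2.32). The cluster's level with the combination thus exceeded that of the other cells in either library. Psat1 was 1.90-fold and 2.01-fold higher in cluster 2, Shmt1 1.89-fold and 1.66-fold, Phgdh 1.65-fold and 1.64-fold, and Cars 1.91-fold and 1.88-fold. These 5 of 30 measured members were at least 1.5-fold higher in both libraries, beside 7.31% of all genes, and 0 were lower, beside 1.61%. The other enzymes did not pass this limit in both libraries. Shmt2 was 1.36-fold and 1.32-fold higher, Mthfd1 1.17-fold and 1.51-fold, Mthfd1l 1.25-fold and 1.41-fold, and Psph 1.15-fold and 1.05-fold. The interval of Psph held 1 with the combination (0.988 to 1.12). Median UMIs per Ncr1-positive cell were 4760 and 4007 in cluster 2, 4134 and 3794 in cluster 6, and 3106 and 2418 in cluster 1. In cluster 6, Mthfd2 was at 79.7 and 54.7 CPM and Psat1 at 60.1 and 41.0 CPM. Cluster 2 was the deepest of these clusters, and the part of depth in its folds was not tested. For Asns the ratio of cluster 2 to the other cells was 1.32 (1.14 to 1.52) with IL-15SA and 0.998 (0.835 to 1.19) with the combination, and the difference between these ratios was not tested.

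Few members stood apart elsewhere. In cluster 1, Mthfd2 and Psat1 were at least 1.5-fold lower than in the other cells in both libraries (background 4.87%). Mthfd2 was also lower by this rule in cluster 7 (background 6.29%). The starvation-induced carrier Slc38a2 was lower in cluster 6, at 72.0 against 110 CPM with IL-15SA and 62.1 against 121 CPM with the combination (background 9.29%). Of 30 measured members, these are 2 in cluster 1, 1 in cluster 7 and 1 in cluster 6. Such counts are near or under the shares over all genes. In clusters 3 and 4, 0 members passed the limit in both libraries, beside 0.849% of all genes upward and 4.41% downward in cluster 3 and 2.94% and 3.84% in cluster 4.

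Between the libraries, 10 of the 30 measured members were lower with the combination in each of the 6 clusters, where 8.28% of all genes were. They are Slc7a5, Slc1a5, Shmt2, Mthfd1, Mthfd2, Mthfd1l, Gars, Sars, Nars and Mars. Another 10 were lower in 5 clusters, but no share over all genes is given for this count, so nothing is read from it. Slc7a5 had log2 ratios from -0.88 in cluster 1 (58.2 and 31.1 CPM) to -0.46 in cluster 7 (37.9 and 27.2 CPM, from 24 and 36 UMIs). Its interval lay below 1 in clusters 1, 2, 3, 4 and 6 and held 1 in cluster 7. Mthfd2 was lower from 140 to 95.3 CPM in cluster 2 and from 62.4 to 39.5 CPM in cluster 1, while its intervals held 1 in clusters 3, 4 and 7. The median of the enzymes was -0.44 in cluster 1 and -0.12 in cluster 4, its extremes, and that of the synthetases -0.29 in cluster 1 and -0.12 in cluster 7. The lower levels were thus not limited to the dividing cells.

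Ddit3 was higher with the combination in 5 of 6 clusters. It was at 29.4 and 53.0 CPM in cluster 1, 1.80-fold higher (1.54 to 2.12), and at 42.7 and 81.7 CPM in cluster 7, 1.92-fold higher (1.25 to 3.04). In cluster 2 the levels were 45.5 and 63.1 CPM. Cluster 6, led by granzyme genes, was the exception, with 30.4 and 22.1 CPM from 79 and 21 UMIs and an interval of the ratio from 0.426 to 1.19. Slc7a1 went its own way in cluster 4, with 8.71 and 19.99 CPM, 2.30-fold higher (1.45 to 3.75), while its interval lay below 1 in cluster 1 (0.587 to 0.990).

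**Figure D3:**
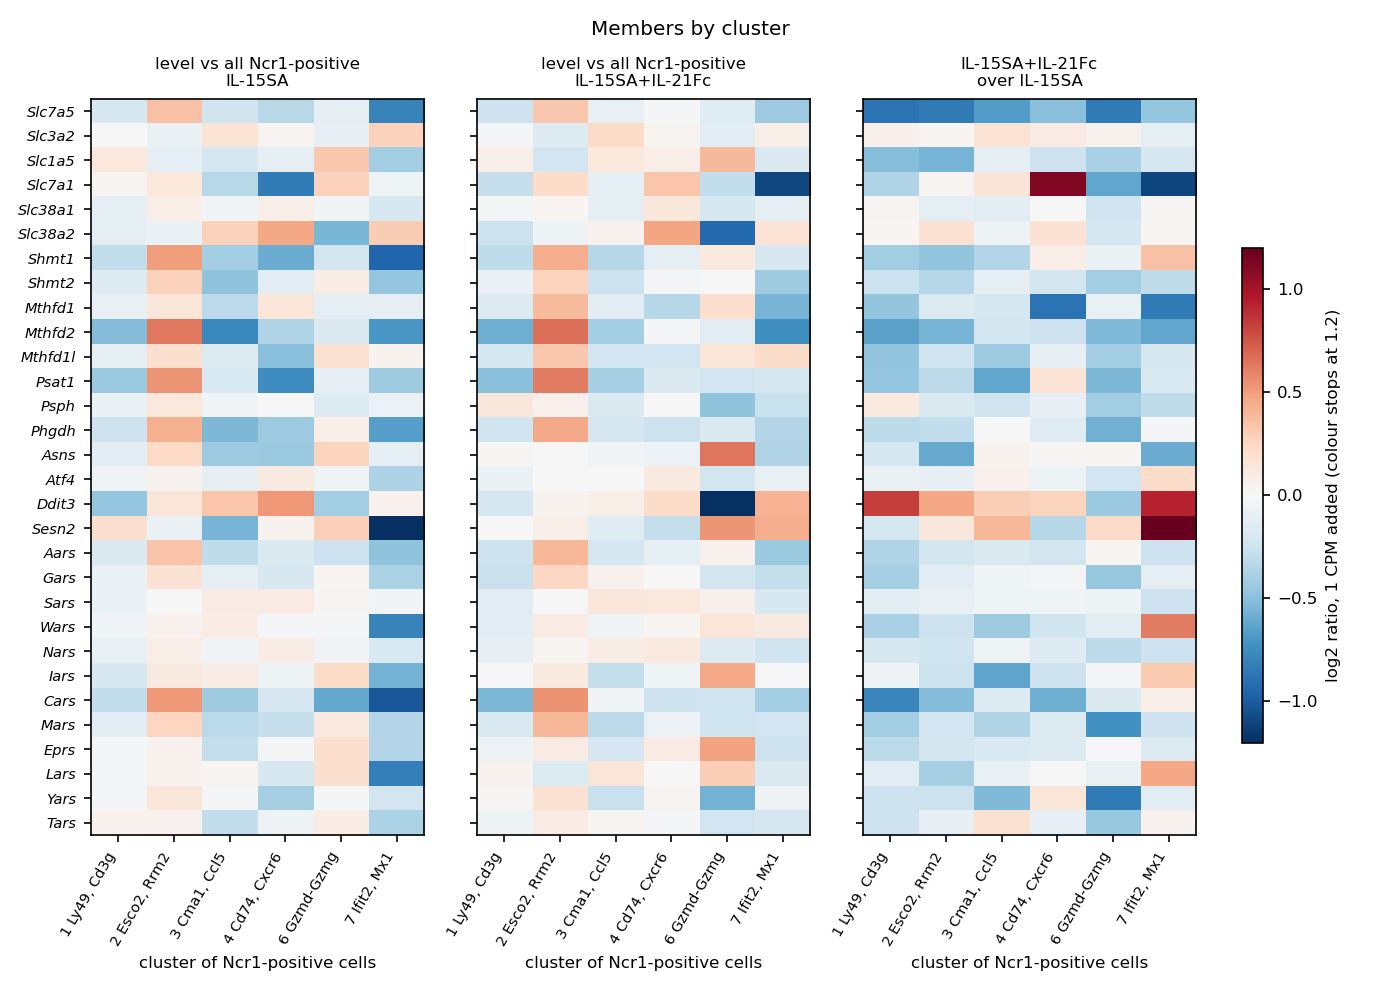
Log2 ratios of the 30 measured members by cluster of Ncr1-positive cells, as the cluster's level over that of all Ncr1-positive cells in each library (left and middle) and as the combination over IL-15SA within each cluster (right); red is higher, blue lower. Cluster 2 is red for Mthfd2, Psat1, Phgdh, Shmt1 and Cars in both libraries, and on the right Slc7a5 is blue in all 6 clusters and Ddit3 red in 5. Sesn2 in cluster 7 rests on 1 UMI in the IL-15SA library.

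The largest contrasts of the members were between cell classes. At least 2-fold higher levels in tumour-like cells than in Ncr1-positive cells of the same library were seen for 18 of 33 members in both libraries, beside 18.3% of 10772 genes. They are Slc7a1, Slc7a11, Shmt2, Mthfd2, Psat1, Phgdh, 5 of the ATF4 group without Ddit3, and Aars, Nars, Iars, Cars, Mars, Lars and Tars. Only Slc38a1 was at least 2-fold lower in both, beside 8.34% of genes. NK cell RNA in the tumour-like cells, at the shares given above, moves with these folds, and its part was not tested.

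Among the ATF4 group, Asns, Chac1 and Trib3 had wide gaps between the classes. Asns was at 29.2 CPM in Ncr1-positive and 250.2 CPM in tumour-like cells with IL-15SA, an 8.55-fold difference (7.57 to 9.65). With the combination it was at 22.6 and 289 CPM, a 12.8-fold difference (11.6 to 14.1). Chac1 was at 2.45 and 41.7 CPM (17.0-fold) and at 2.05 and 43.3 CPM (21.2-fold), and Trib3 at 3.31 and 50.8 CPM (15.3-fold) and at 2.51 and 34.8 CPM (13.9-fold). Both are targets that respond late or to strong stress, and they were rare in Ncr1-positive cells of either library. The transporter Slc7a11 was at 0.376 and 6.04 CPM (16.1-fold, 5.997 to 43.0, from 10 and 10 UMIs) with IL-15SA and at 0.646 and 4.38 CPM (6.78-fold, 3.33 to 13.8, from 18 and 18 UMIs) with the combination. The Ncr1-positive level of Chac1 was 5.87% and 4.72% of the tumour-like level, that of Trib3 6.53% and 7.22%, and that of Slc7a11 6.23% and 14.8%. The 6 tumour markers had shares from 2.12% to 2.94% and from 3.87% to 5.15%. Listed markers with lower tumour-like levels spread more widely. Krt18 stood at 5.37% and 6.76%, and Col3a1 at 1.63% and 7.46%. Dcn stood at 0.827% and 1.72%, and Saa3 at 10.7% and 0.613%. Cxcl5, Krt8 and Lum reached at most 1.21 CPM in tumour-like cells with IL-15SA. In thinned cells, Asns was found in 2.36% and 2.29% of Ncr1-positive cells and in 15.9% and 18.2% of tumour-like cells. Ddit3 differed less between the classes, at 90.6 and 83.2 CPM in tumour-like cells, 2.21-fold and 1.36-fold higher, and Atf4 was 2.10-fold and 2.31-fold higher.

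Of the 8 serine and one-carbon enzymes, 4 were at least 2-fold higher in tumour-like cells in both libraries, as were 7 of the 12 synthetases. Phgdh was at 137 and 157 CPM in tumour-like cells, 3.37-fold and 4.89-fold higher than in Ncr1-positive cells. Psat1 was at 161 and 190.0 CPM (2.51-fold and 3.94-fold), and Mthfd2 at 216 and 231 CPM (2.40-fold and 3.86-fold). Each fold was larger in the combination library, where the Ncr1-positive level was lower and the share of NK cell RNA in tumour-like cells was smaller. Among synthetases, Cars was 2.95-fold and 6.27-fold higher, and Yars, at 44.7 and 33.3 CPM, had intervals that hold 1 in both libraries. Among transporters the classes were split. Slc3a2 was at 278 and 298 CPM in tumour-like cells, 1.00 times the Ncr1-positive level in both libraries. Slc7a5 was at 81.6 and 68.1 CPM, 1.22-fold (1.02 to 1.46) and 1.83-fold (1.60 to 2.09) higher. Slc38a1 was at 22.4 and 16.3 CPM, which are 34.4% and 26.2% of its Ncr1-positive level and near the shares of the NK cell markers there.

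**Figure D4:**
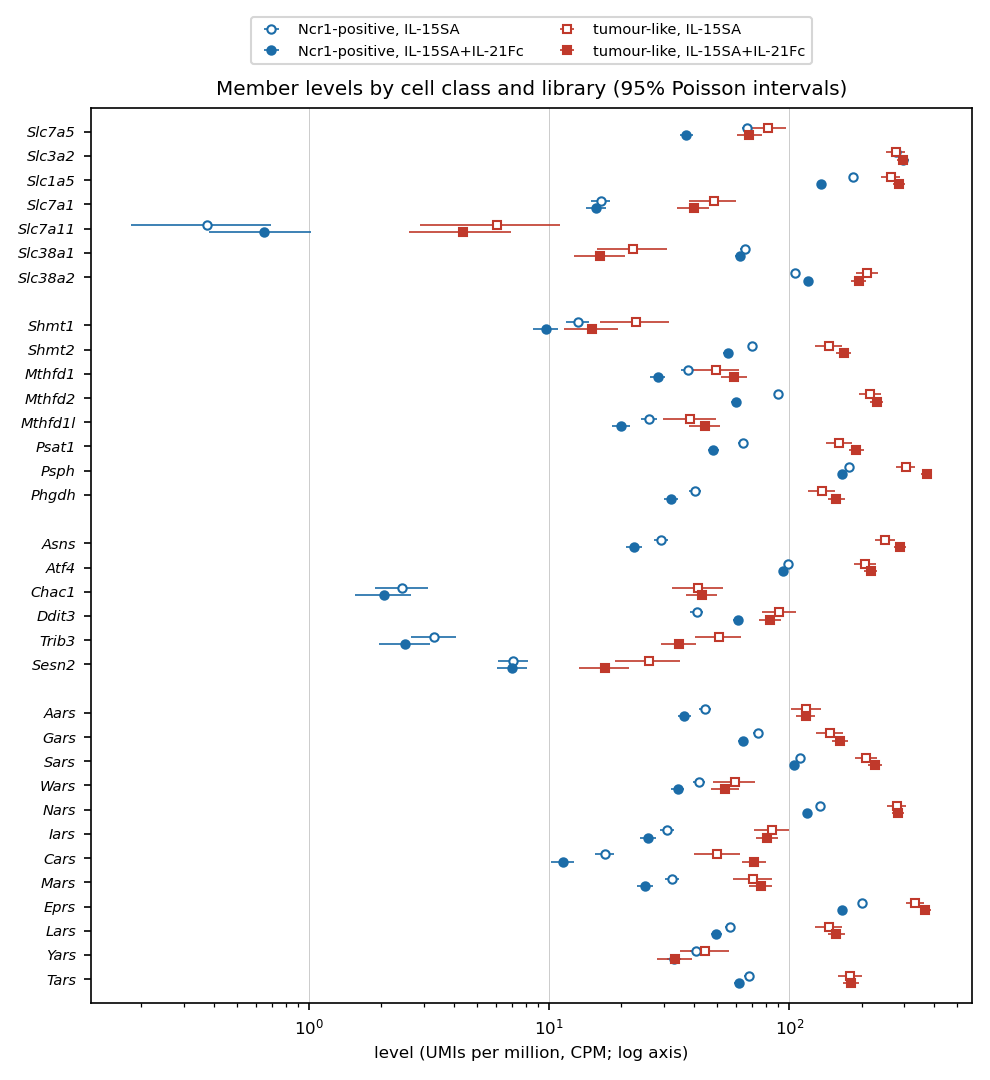
Level of each member in CPM on a log axis, with 95% Poisson intervals, in Ncr1-positive (blue circles) and tumour-like cells (red squares), open for IL-15SA and filled for the combination. For Asns, Chac1, Trib3 and Slc7a11 the tumour-like points lie far to the right of the Ncr1-positive points of the same gene, for Slc38a1 they lie to the left, and the 4 points of Slc3a2 almost coincide.

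Within tumour-like cells the members were compared between the libraries in the same way. A fold of 1.5 or more was passed by 0 of 33 members in either direction, beside 8.43% of 10277 genes downward and 5.28% upward. In these cells 1 UMI is 0.604 CPM with IL-15SA and 0.243 CPM with the combination, so genes near 5 CPM rest on few UMIs. The shares over all genes thus include counting error, and its part was not tested. Of the serine and one-carbon enzymes, 7 of 8 had log2 ratios above 0 with a median of 0.20, where the median over all genes was -0.02 and 52.7% of genes were below 0. The synthetases had a median of 0.06, the ATF4 group -0.03 and the transporters -0.26. Trib3 was lower with the combination, 1.46-fold (1.10 to 1.92), as was Sesn2, at 26.0 and 17.0 CPM, 1.53-fold (1.02 to 2.26). Shmt1, at 23.0 and 15.1 CPM, was 1.52-fold lower with an interval that holds 1 (0.989 to 2.32). With 1 CPM added, Sesn2 and Shmt1 fell just short of the 1.5-fold limit. Cars was higher, at 50.2 and 71.3 CPM, 1.42-fold (1.11 to 1.84). For Slc7a5 the ratio was 0.835 with an interval that holds 1 (0.678 to 1.03). The median of the enzymes was thus below 0 in Ncr1-positive and above 0 in tumour-like cells. This difference was not tested, and the share of NK cell RNA in tumour-like cells also differed between the libraries.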

How the data were processed

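Per the labels' protocols, sorted cells were loaded on a GEXSCOPE microwell chip. The deposited values are counts of UMIs per gene and barcode, not normalized. The submitters' processing notes name cutadapt, featureCounts, Seurat 4, Scanpy and mm10; how reads were aligned, annotated and assigned to strands, and how cells were called, is not given in the sources used here. The series title speaks of IL-21, alone or with IL-15, and groups were taken from the titles of the samples. The files hold 8386 and 12435 barcodes (60 shared sequences) with 30893388 and 35336180 UMIs.

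Filters of 200 genes or more and 20% mitochondrial UMIs or less removed 0 and 5 barcodes. Scrublet's own threshold marked 2 and 1 cells and had not worked, so the 5% with the highest score were left out, which kept 7967 and 11809. Clustering of values scaled to 10000 UMIs per cell used scanpy 1.11.5 and leidenalg 0.10.2 (2000 variable genes without members and pathway lists, 30 components, 15 neighbours, resolution 0.5). Cluster 5 met the rule for tumour-like cells, at least 3 tumour markers at 5 times the median and a ratio of NK cell markers under 0.33. UMIs were summed per library and class; levels have exact Poisson intervals and ratios exact binomial ones, at 95%. With 1 library per group no count model was run. The ratio code was tested on simulated data.

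All 33 members are accounted for, and those under 5 CPM in Ncr1-positive cells are given with UMI counts. Of other pathway genes, the 3 per list with the largest ratio in size at 20 CPM or more are named; Castor1, Castor2, Ppat and Gcn1 had no single matching symbol. Members, lists and rules were chosen with earlier results of these data known. Exon overlaps use mm10 annotation and promoters RefSeq. Alternatives covered cell choice, doublets, clustering, weighting by depth, centring, pseudocount and filters.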

Additional observations from a re-analysis of the deposited data

Results flagged for a closer look

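The results below have counting intervals on opposite sides of 1 in different classes or clusters of cells under the same contrast; the differences themselves were not tested. In tumour-like cells the ratio of the combination over IL-15SA was 1.18 for Psat1, 1.22 for Psph, 1.15 for Asns and 1.42 for Cars, while each was lower with the combination in Ncr1-positive cells. The NK cell markers stood in tumour-like cells at medians of 32.1% and 21.5% of their Ncr1-positive level, and the part of this in the ratios was not tested. In the 174 and 606 tumour-like cells without an Ncr1 UMI, the levels with IL-15SA and the combination were 156 and 188 CPM for Psat1, 299.8 and 377 CPM for Psph, 54.7 and 71.1 CPM for Cars, and 299.8 and 273 CPM for Asns, for which the order was the opposite. Within Ncr1-positive cells, Slc7a1 had a ratio of 2.30 in cluster 4, with a ratio below 1 in cluster 1. Psph had a ratio of 1.09 in cluster 1, with ratios below 1 in other clusters.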

How the results depend on the processing

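No paired analysis was possible because there is 1 library per treatment, and no replicate could be left out. The cause of the moves below was not tested. The median log2 ratio of the serine and one-carbon enzymes (-0.38) was -0.25 in all filtered barcodes with an Ncr1 UMI, taken without clusters, -0.24 as a mean over 10 depth bins and -0.21 over 4 depth bins within clusters. In all filtered barcodes with an Ncr1 UMI the synthetases (-0.27) had -0.15 and the ATF4 group (-0.04) had 0.13, a change of sign. The count of members at least 1.5-fold lower (1) was 2 in all cells of the NK clusters, 2 with a pseudocount of 0.1 CPM, 2 without cluster 1, 2 without cluster 4 and 3 without cluster 6. Mthfd2 was the added gene in each of these, joined by Cars without cluster 6. The count at least 1.5-fold higher (0) was 1, Ddit3, without cluster 2, without cluster 3 and without cluster 4. Settings that leave out a cluster or bin depth within clusters were chosen after seeing the data. The number of members below 0 ran from 24 to 27 of 30 wherever no level filter was raised. Centring on the median of genes at 20 CPM or more shifted ratios by 0.02 on the log2 scale. No cluster met the definition of mixed cells, so the alternative that adds them gave no value. Depth limits Slc7a11, Chac1 and Trib3 in Ncr1-positive cells.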
